A study of Arabidopsis thaliana with 72 samples.

Results

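A group of 65 probe sets was low in det2-1 mock seedlings relative to Col-0 mock seedlings and high again in det2-1 seedlings given brassinolide (BL) for 3 h. They were chosen by these measured levels, out of 22810 probe sets on the array, 64 of which were controls. A level is given throughout as log2 of the scaled signal plus 55, the arrays having been scaled to a common trimmed mean of 1147. A difference of 1 is close to a doubling of the signal for bright probe sets and more than a doubling for dim ones. A fold is given as a ratio of scaled signal plus 55, so for dim probe sets it is smaller than the ratio of the signals. To be a member, a probe set had to lie at least 0.8 lower in det2-1 mock than in Col-0 mock, averaged over 30 min, 1 h and 3 h. It also had to lie at least 0.8 higher after 3 h of BL than after 3 h of mock treatment in det2-1, with both BL arrays above both mock arrays, and to reach a level of 8.5 with BL. The deficit alone was met by 806 probe sets, and the BL conditions alone by 497. A further 5 probe sets were left out by name, 2 of which met all the thresholds. Of the 65 members, 28 name 1 gene, 1 names both AT5G46900 and AT5G46890, and 36 are unnamed here and are given by their probe set ID. There are 4 members with an ID that marks probes shared by related transcripts, so their signal may come from more than 1 gene. All 65 members passed the low-signal filter behind the tests.

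The seedlings were Arabidopsis thaliana, 7 days old and grown at 22 °C, and total RNA of whole seedlings was hybridised to 72 Affymetrix ATH1 arrays, 2 for each of 36 groups of genotype, treatment and time. det2-1 seedlings, which are deficient in brassinosteroids, received 10 nM BL or mock treatment. ga1-5 seedlings, which are deficient in gibberellin, received 1 µM GA3 (a gibberellin) or mock treatment. Col-0, the wild type, received 10 nM BL, 1 µM IAA (an auxin), 1 µM zeatin (a cytokinin), 10 µM ABA (abscisic acid), 10 µM methyl jasmonate (MJ), 10 µM ACC (the precursor of ethylene), 1 µM GA3 or mock treatment. All treatments lasted 30 min, 1 h or 3 h. Arrays of 1 genotype and 1 time form a lettered set, 9 in all. A difference between genotypes or between times thus cannot be told apart from a difference between sets. Whether both arrays of a group stem from separate cultures is not said in the labels, and the p-values therefore reflect a spread that may be technical.

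Brassinosteroids are steroid hormones that promote cell elongation, and seedlings that cannot make them are dwarfed. DET2 encodes a steroid reductase of their synthesis, and brassinolide, the most active brassinosteroid, bypasses that step when supplied from outside. The hormone binds the receptor kinase BRI1 at the cell surface, which with its partner BAK1 leads to the inactivation of the kinase BIN2. The transcription factors BZR1 and BES1 are then free to act in the nucleus, where they raise genes of cell wall loosening and growth and lower genes of brassinosteroid synthesis.

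The values that chose the members are given first, as a description. The deficit of det2-1 mock against Col-0 mock had a median of -1.09 over the 65 members and ran from -2.81 to -0.80. AT4G29700, which encodes a protein of the alkaline phosphatase-like family, had the largest deficit at -2.81, followed by 247252_at at -2.55, AT5G20790 at -2.40 and 264100_at at -2.26. The difference of BL against mock in det2-1 at 3 h had a median of 1.39 and ran from 0.81 to 3.60. It was largest for 253103_at at 3.60, 267614_at at 3.44, 252970_at at 2.87, AT2G31730 at 2.80 and AT5G45670 at 2.79. AT2G31730 encodes a basic helix-loop-helix transcription factor and AT5G45670 a lipase or esterase of the GDSL family. The largest deficits and the largest differences under BL therefore belonged mostly to different members.

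Probe sets lay close to each threshold. Just inside the deficit threshold were AT1G30690 at -0.80, 264007_at at -0.80 and 250445_at at -0.81, and just outside were AT3G50340 at -0.80, AT3G53400 at -0.79 and AT1G50040 at -0.78. For BL against mock in det2-1, 253534_at at 0.81, COR47 at 0.83 and 264783_at at 0.84 were inside, and AT4G30060 at 0.79, 245809_at at 0.79 and 259611_at at 0.77 were outside. For the level in det2-1 with BL, 266831_at at 8.51, 245709_at at 8.59 and AT3G62220 at 8.60 were inside, and AT3G55760 at 8.34, 259871_at at 8.17 and 265106_s_at at 8.13 were outside. The borders thus ran through closely spaced values, and another way of scaling the arrays, with the trimmed mean over all probe sets of each array, gave 64 members, 63 of them shared with the 65.

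The time course in det2-1 shows when the members left their low level. Against mock seedlings of the same genotype and time, the median difference under BL was 0.00 at 30 min, with 33 members above 0 and 32 below. At 1 h it was 0.37, with 56 members above 0 and 13 of them at 0.8 or more. At 3 h, the time the choice of members used, it was 1.39. The 30 min and 1 h values use det2-1 mock arrays that helped to choose the members, so they too are a description.

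253103_at was among the members already high at 1 h. It measured 10.08 and 9.07 in det2-1 with BL for 1 h, against 7.00 and 7.25 with mock. At 3 h the values were 11.06 and 11.16 with BL, against 7.24 and 7.77 with mock. 267614_at measured 8.31 and 8.58 with BL for 1 h, against 6.35 and 6.20 with mock. In both probe sets the BL arrays lay above the mock arrays at 1 h and further above them at 3 h. 257506_at measured 8.79 and 9.27 with BL for 1 h, against 6.09 and 7.85 with mock, and 9.88 and 9.63 with BL for 3 h, against 7.28 and 6.90 with mock. 252970_at measured 7.86 and 8.25 with BL for 1 h, against 6.96 and 7.07 with mock, and 9.85 and 9.61 with BL for 3 h, against 7.35 and 6.37 with mock. These groups did not overlap at either time.

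AT2G31730 measured 9.76 and 9.40 in det2-1 with BL for 1 h, against 9.17 and 9.13 with mock, and 11.83 and 11.56 with BL for 3 h, against 9.05 and 8.73 with mock. AT5G45670 measured 9.91 and 10.14 with BL for 1 h, against 9.64 and 9.52 with mock, and 12.26 and 12.50 with BL for 3 h, against 9.52 and 9.66 with mock. For both genes nearly all of the difference appeared between 1 h and 3 h. EXPA8, an expansin that loosens the cell wall, measured 8.81 and 8.69 with BL for 1 h, against 8.97 and 8.44 with mock, and 10.85 and 10.84 with BL for 3 h, against 8.66 and 8.18 with mock. At 1 h its BL arrays lay within the range of its mock arrays, and at 3 h above them.

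**Figure D1:**
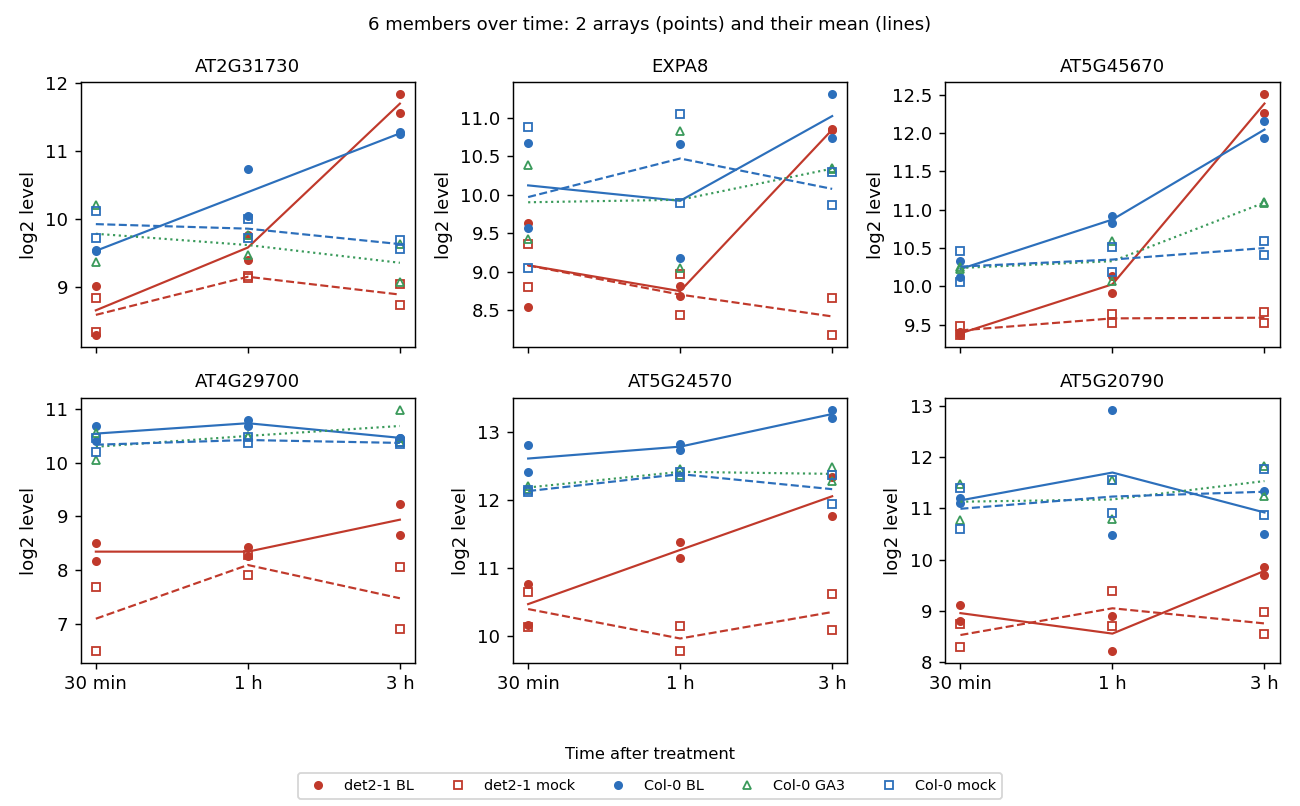
Log2 levels of 6 members over the 3 times on a linear axis; filled circles are seedlings given BL, squares mock and triangles GA3, red det2-1, blue and green Col-0, with each array as a point and lines joining the means of 2 arrays. AT2G31730, EXPA8 and AT5G45670 reach or pass the Col-0 levels in det2-1 at 3 h of BL, while AT4G29700 and AT5G20790 stay below every Col-0 array.

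How far the 3 h values came back can be read against Col-0 mock at 3 h, whose arrays also chose the members. det2-1 with BL for 3 h differed from Col-0 mock by a median of 0.17, with 36 of 65 members within 0.5 and a range from -1.54 to 2.41. At the upper end were 253103_at at 2.41, AT2G31730 at 2.06 and AT5G45670 at 1.89. At the lower end were AT5G20790 at -1.54, AT4G29700 at -1.42, 264100_at at -1.25 and AT1G62480, a gene related to vacuolar calcium-binding proteins, at -1.23. Because the choice required both a deficit and a rise under BL, it favoured a median near Col-0 mock. Single members differed from that median: 12 of 65 ended at least 0.8 above Col-0 mock, and 5 ended more than 1 below it. The fifth of these was the probe set of AT5G46900 and AT5G46890 at -1.12. Against Col-0 seedlings that had also received BL for 3 h, the median was -0.38, with 53 of 65 members below 0. Over the same comparison of BL with mock in det2-1 at 3 h, RCA, which encodes the leaf protein Rubisco activase, measured 10.38 and 7.99 with BL, against 12.46 and 10.71 with mock. LHCB4.1, the other leaf photosynthesis marker tested, changed less, with 13.42 and 13.41 with BL, against 13.55 and 13.74 with mock. The summed scaled signal of 27 photosynthesis probe sets was 261585 to 275891 with BL, against 296521 to 341380 with mock. These ranges did not overlap, and their part in the members' values was not tested.

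**Figure D2:**
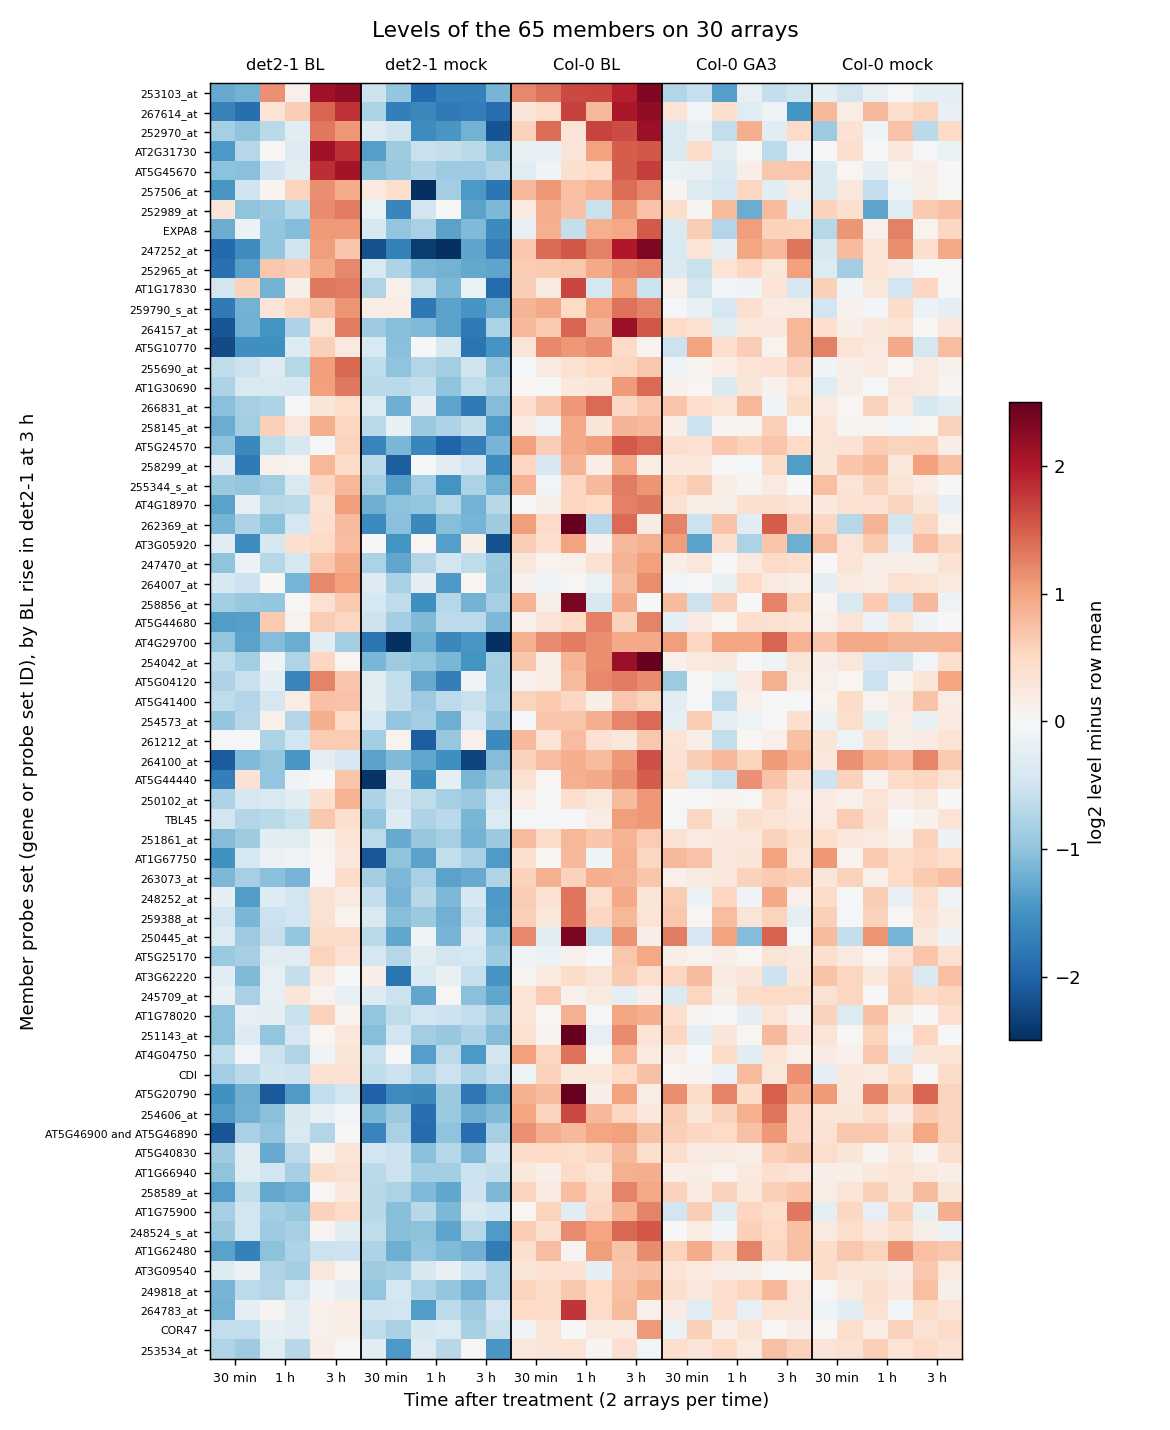
Log2 level of each of the 65 members on 30 arrays minus the mean of its row, red above and blue below, with rows ordered by the difference of BL against mock in det2-1 at 3 h; columns are det2-1 BL, det2-1 mock, Col-0 BL, Col-0 GA3 and Col-0 mock, each with 2 arrays at 30 min, 1 h and 3 h. The mean of 2 arrays lay above the row mean for 1, 10 and 56 members in det2-1 at 30 min, 1 h and 3 h of BL, and for 61, 64 and 64 in Col-0 at the same times of BL.

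The remaining results rest on comparisons of arrays that took no part in the choice. They were tested with limma over 17262 probe sets, with Benjamini-Hochberg adjustment over all of these and a threshold of 0.05 for a call. The spread of each probe set was estimated over all 36 groups, with 36 residual degrees of freedom. The unused arrays came from the same lettered sets as the arrays that chose the members: replicate deviations of Col-0 GA3 and Col-0 mock arrays with the same number correlated at 0.27 to 0.33 across probe sets, and those of Col-0 BL and mock at 0.04 to 0.30. Over the members, the 2 arrays of a group differed by a median of 0.20 to 0.49, depending on the group. Col-0 ACC 3 h replicate 1 had a trimmed mean of 1148, while the other first replicates of its set were near 1045 and those of the 30 min set near 1147. Among the tested comparisons only that of ACC uses the array in its difference, and that comparison is also given without it. The array also enters the shared spread behind the p-values of all comparisons.

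**Figure D3:**
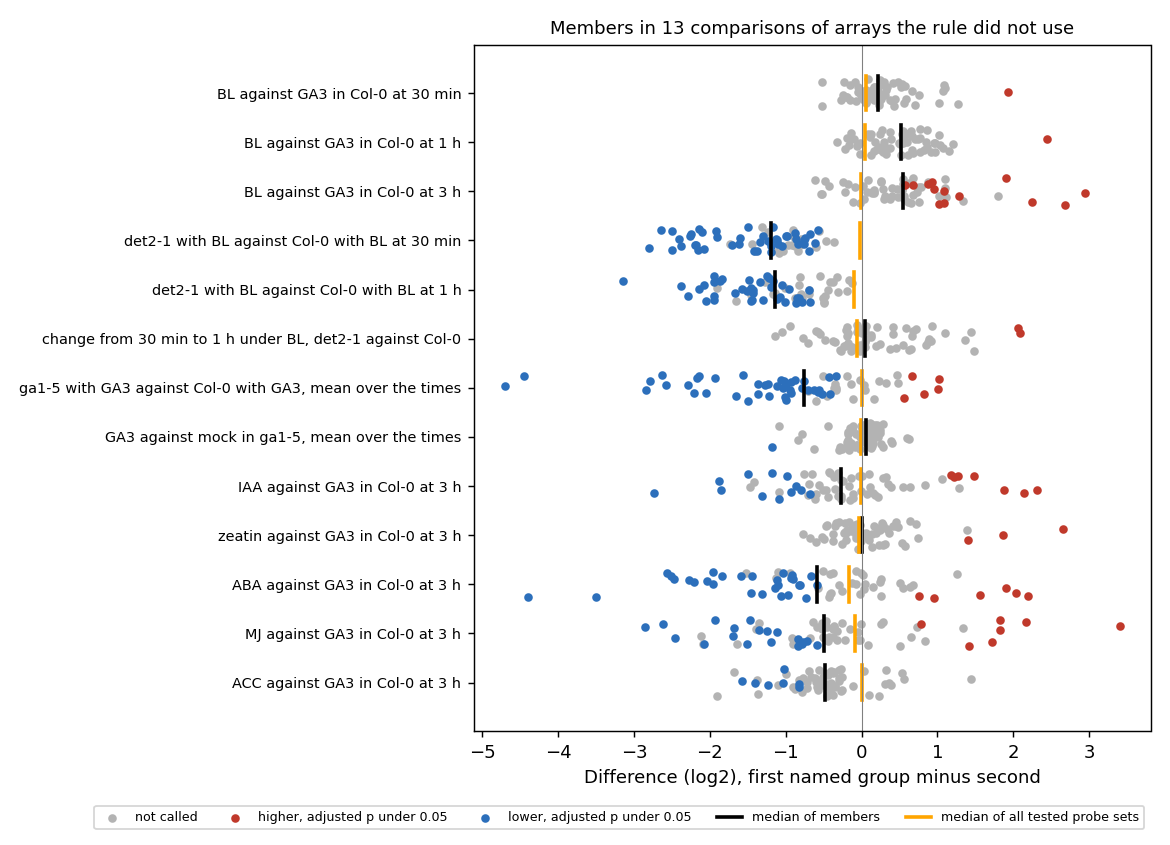
Differences (log2, first named group minus second) of the 65 members in the 13 tested comparisons, 1 point per member, red and blue where the adjusted p was under 0.05; black bars are the medians of the members and orange bars the medians of all 17262 tested probe sets. The medians of the members lie right of 0 under BL in Col-0. They lie left of 0 in det2-1 and in ga1-5 against Col-0 and under ABA, MJ, ACC and IAA. Called higher all the same were 5 members in ga1-5 against Col-0, 6 under ABA, 7 under MJ and 7 under IAA.

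The first question was whether BL also raised the members in Col-0, which makes its own brassinosteroids. Col-0 seedlings given GA3 served as the comparison because the Col-0 mock arrays had been used to choose the members. A difference from GA3, here and under the other hormones, can therefore include an effect of GA3 itself. Against Col-0 mock, as a description, the median under BL at 3 h was 0.53 and the highest difference 2.36. Against GA3 the highest was 2.94, for 267614_at. By the test against GA3 at 3 h of BL, 13 of the 65 members rose and 0 fell. Of all tested probe sets, 0.678% were called higher and 0.707% lower. The members' median difference was 0.54, against -0.01 for all tested probe sets, and 54 of 65 members lay above 0, as did 49% of all tested probe sets. Both BL arrays lay above both GA3 arrays for 39 members, or 60%, against 15.7% of all tested probe sets. At 30 min and at 1 h, 253103_at was the 1 member called, and it was higher. The share of all tested probe sets called higher was 0.0232% at 30 min and 0.295% at 1 h, and the share called lower was 0.0406% and 0.272%. The members' median was 0.22 at 30 min and 0.52 at 1 h, against 0.05 for all tested probe sets at each time. Above 0 were 49 members at 30 min and 54 at 1 h, against 57.5% and 56.2% of all tested probe sets. Both BL arrays lay above both GA3 arrays for 20 members (30.8%) at 30 min and 33 (50.8%) at 1 h, against 25.7% and 25.6% of all tested probe sets. At an unadjusted p under 0.05, 9 members were higher at 30 min, 16 at 1 h and 29 at 3 h, and 0 were lower. The shares of all tested probe sets that were higher at that threshold were 6.09%, 7.18% and 4.42%, and of those lower 3.05%, 5.01% and 5.03%.

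253103_at measured 10.88 and 11.25 in Col-0 with BL for 3 h, against 8.33 and 8.44 with GA3, a 6.40-fold difference (log2 2.68 ± 0.34 SE, n = 2 each, limma adjusted p = 1.92e-06). Its levels with BL were 10.13 and 10.30 at 30 min and 10.58 and 10.60 at 1 h, against 8.21 and 8.36 with GA3 at 30 min and 7.56 and 8.72 at 1 h. The differences were 1.93 (adjusted p = 0.00625) and 2.45 (adjusted p = 1.9e-05). It was thus high from the first time point in Col-0, and in det2-1 not until 1 h. 267614_at measured 10.02 and 10.18 with BL for 3 h, against 7.85 and 6.48 with GA3 (log2 2.94 ± 0.40 SE, adjusted p = 6.08e-06). 254042_at measured 11.54 and 11.93 with BL for 3 h, against 9.27 and 9.72 with GA3 (log2 2.24 ± 0.29 SE, adjusted p = 1.63e-06). The groups did not overlap in either probe set.

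The genes with names were led by AT2G31730, the helix-loop-helix factor. It measured 11.24 and 11.27 in Col-0 with BL for 3 h, against 9.07 and 9.64 with GA3 (log2 1.90 ± 0.34 SE, adjusted p = 0.000533). AT1G30690, a patellin-like protein of the Sec14 family that binds lipids, measured 11.83 and 12.18 with BL, against 10.88 and 11.10 with GA3 (log2 1.02 ± 0.19 SE, adjusted p = 0.000943). Neither pair of groups overlapped. The GDSL-family genes AT5G45670 (0.95, adjusted p = 0.017) and AT4G18970 (0.93, adjusted p = 0.0145) rose by similar amounts, as did AT5G24570 (0.88, adjusted p = 0.017). AT3G09540, a pectin lyase-like protein, rose by 0.68 with an adjusted p of 0.0489. The other 4 members called were 264157_at at 1.29, 259790_s_at at 1.09, 255344_s_at at 1.09 and 250102_at at 0.57. 264157_at measured 11.98 and 11.40 with BL, against 10.13 and 10.67 with GA3.

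Several members with large differences in det2-1 did not pass in Col-0. 252970_at measured 10.16 and 10.68 in Col-0 with BL for 3 h, against 8.24 and 9.01 with GA3, a difference of 1.80 that was not called. 257506_at measured 10.10 and 9.94 with BL, against 8.44 and 8.93 with GA3, a difference of 1.33. EXPA8 measured 10.74 and 11.30 with BL, against 10.35 and 10.33 with GA3, a difference of 0.68. In all 3 the BL arrays lay above the GA3 arrays without a call. Each of the 4 arrays mattered to the count of 13 at 3 h, which became 5 when Col-0 GA3 3 h replicate 1 was left out, 6 for its replicate 2, 7 for Col-0 BL 3 h replicate 1 and 5 for its replicate 2. At 3 h, 253103_at, 267614_at, 254042_at and AT2G31730 were called in each of these 4 tests, and AT5G24570, AT4G18970, AT3G09540 and 259790_s_at in 0. At 30 min the call of 253103_at was lost without Col-0 GA3 30 min replicate 2 or either Col-0 BL 30 min array, and at 1 h 4 members were called once Col-0 BL 1 h replicate 2 was left out.

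The second question was whether the low level in det2-1 was also seen in arrays the choice did not use. In seedlings given BL for 30 min, a time at which the median difference of BL against mock in det2-1 was 0.00, 45 of the 65 members were lower in det2-1 than in Col-0 and 0 were higher. Of all tested probe sets, 5.64% were called lower and 3.77% higher. All 65 differences were below 0, against 52% of all tested probe sets, and their median was -1.19. Both det2-1 arrays lay below both Col-0 arrays for 60 members, or 92.3%, against 25.6% of all tested probe sets. On the deposited scale, where det2-1 arrays are brighter and the median of all tested probe sets was 1.12 higher in det2-1, 14 members were lower and 3 higher at 30 min. After 1 h of BL, 38 members were lower and 0 higher, against 9.63% and 7.32% of all tested probe sets, and the median was -1.14. All 65 differences were again below 0, as were 58.6% of those of all tested probe sets. The det2-1 arrays lay below the Col-0 arrays for 53 members, or 81.5%, against 33.2% of all tested probe sets. Lower at both times were 33 members, 73.3% of the 45 and 86.8% of the 38. Of all 65 members, 58.5% were lower at 1 h and 69.2% at 30 min.

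AT5G24570 had the smallest adjusted p at 30 min. It measured 10.77 and 10.17 in det2-1 with BL, against 12.81 and 12.40 in Col-0 with BL, and was 4.40-fold lower (log2 -2.14 ± 0.21 SE, n = 2 each, adjusted p = 5.41e-10). 259790_s_at measured 8.36 and 8.94 in det2-1, against 10.98 and 11.08 in Col-0 (log2 -2.38 ± 0.28 SE, adjusted p = 3.72e-08). 251861_at measured 9.25 and 9.45 in det2-1, against 11.12 and 10.79 in Col-0 (log2 -1.60 ± 0.19 SE, adjusted p = 4.88e-08). In each the 2 det2-1 arrays lay more than 1 below the Col-0 arrays. 263073_at measured 9.84 and 10.14 in det2-1, against 11.53 and 11.85 in Col-0 (log2 -1.70 ± 0.21 SE, adjusted p = 7.92e-08). 264157_at measured 7.70 and 8.63 in det2-1, against 10.65 and 10.50 in Col-0 (log2 -2.41 ± 0.29 SE, adjusted p = 9.92e-08). AT4G29700 measured 8.52 and 8.18 in det2-1, against 10.39 and 10.68 in Col-0 (log2 -2.19 ± 0.28 SE, adjusted p = 2.15e-07). None of these groups overlapped.

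The members with the deepest deficits kept to this order only in part. 247252_at measured 8.07 and 8.46 in det2-1 with BL for 30 min, against 10.71 and 11.44 in Col-0 with BL, the largest difference of the 65 at -2.81 (adjusted p = 6.59e-06). 264100_at measured 7.20 and 8.18 in det2-1, against 9.85 and 10.04 in Col-0 (-2.26, adjusted p = 6.04e-07). AT5G20790 measured 8.81 and 9.10 in det2-1, against 11.20 and 11.10 in Col-0 (-2.20), a call that was lost with any 1 of the 4 arrays left out. After 1 h it measured 8.22 and 8.89 in det2-1, against 12.91 and 10.48 in Col-0 (-3.14, adjusted p = 0.000666). In Col-0 with BL for 1 h, replicate 1 was more than 2 above replicate 2 for 6 members, AT5G20790, AT1G17830, 262369_at, 250445_at, 251143_at and 258856_at, and for 146 of all tested probe sets. The count of members lower at 1 h was 26 without det2-1 BL 1 h replicate 1, and at most 37 with any 1 of the 4 arrays left out. At 30 min it was 26 without det2-1 BL 30 min replicate 1 and at most 39 without any of the other arrays.

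Leaf photosynthesis genes also differed between the genotypes. RCA measured 9.96 and 6.36 in det2-1 with BL for 30 min, against 13.59 and 13.82 in Col-0 with BL. In det2-1 with mock for 30 min it measured 12.83 and 11.85. LHCB4.1 measured 13.60 and 12.82 in det2-1 with BL for 30 min, against 14.20 and 14.48 in Col-0 with BL. In det2-1 with mock for 30 min LHCB4.1 measured 13.64 and 13.60. Of the 27 photosynthesis probe sets, 9 were lower in det2-1 and 0 higher, with a median of -0.62, and their summed scaled signal was 275107 to 284192 in det2-1, against 388056 to 479468 in Col-0. Of 2 guard cell markers tested, SPCH was lower (-1.70, adjusted p = 0.0163) and FMA was not called. FMA measured 8.55 and 9.08 in det2-1 with BL for 30 min, against 8.68 and 8.72 in Col-0 with BL. None of the root hair or epidermis markers tested was called. No marker probe set had a scaled signal at or under 55, the constant added before taking logs, on both arrays of either group, but RCA was under it in det2-1 with BL 30 min replicate 2, and SPCH, at 6.82 and 6.90 in det2-1 with BL, was just above it. Fewer cells of a type and less RNA per cell cannot be told apart in whole seedlings, and the part of these markers in the members' difference was not tested. Between BL and GA3 in Col-0 at 3 h, 0 of the 27 photosynthesis probe sets were called.

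**Figure D4:**
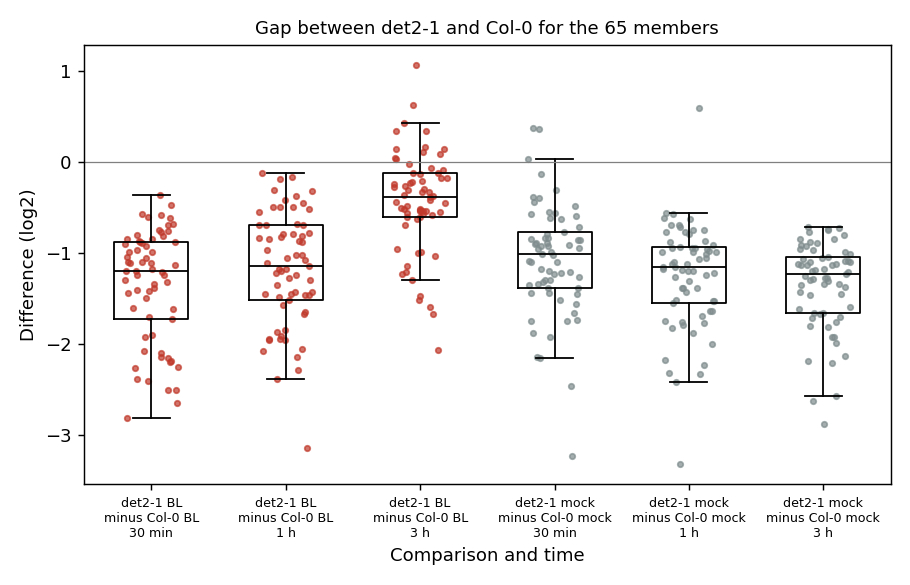
Differences (log2) between det2-1 and Col-0 for the 65 members, 1 point per member, with boxes for the quartiles and whiskers to the last point within 1.5 box lengths; red is BL-treated seedlings and grey mock-treated seedlings, at 30 min, 1 h and 3 h. The median gap under BL is -1.19, -1.14 and -0.38, and under mock -1.01, -1.15 and -1.22.

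Whether the gap between genotypes narrowed from 30 min to 1 h of BL was tested as a difference of differences on 8 unused arrays. Higher by this test were 2 members and lower 0, against 0.0174% and 0.0406% of all tested probe sets, and the members' median was 0.04. For 252965_at the levels in det2-1 were 8.57 and 9.08 at 30 min and 11.10 and 11.05 at 1 h, and in Col-0 11.07 and 11.09 at 30 min and 11.10 and 11.38 at 1 h (2.08 ± 0.41 SE, adjusted p = 0.0181). For 259790_s_at the levels in det2-1 were 8.36 and 8.94 at 30 min and 10.45 and 10.67 at 1 h, and in Col-0 10.98 and 11.08 at 30 min and 10.63 and 11.12 at 1 h (2.06 ± 0.39 SE, adjusted p = 0.0164). In both, the det2-1 arrays lay close to the Col-0 level at 1 h of BL. The 2 times are separate lettered sets in each genotype, so this change cannot be told apart from a difference between sets. Leaving out either Col-0 BL 30 min array, Col-0 BL 1 h replicate 1 or det2-1 BL 30 min replicate 1 brought the count to 0, and leaving out det2-1 BL 1 h replicate 1 brought it to 1. 253103_at (1.49) and 267614_at (1.37) had differences in the same direction that were not called.

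The named members fall into a few kinds by what their products are known to do, a grouping made after the values were seen and given without a test. For the counts by kind, 20% of all 65 members were higher with BL in Col-0 at 3 h, against 0.678% of all tested probe sets. Lower in det2-1 with BL at 30 min were 69.2% of the members, against 5.64% of all tested probe sets. Of 4 cell wall genes, EXPA8, TBL45, AT1G67750 and AT3G09540, AT3G09540 was higher with BL in Col-0 at 3 h, and AT1G67750 and AT3G09540 were lower in det2-1 with BL at 30 min. Both calls of AT3G09540 were lost with any 1 of the 4 arrays left out, and that of AT1G67750 with 3 of them. AT1G67750 encodes a pectate lyase family protein, and its levels were 8.05 and 9.12 in det2-1 with BL, against 9.97 and 9.62 in Col-0 with BL (-1.21). TBL45 belongs to a family whose members acetylate wall polysaccharides, and its differences were 0.76 with BL in Col-0 and -0.56 in det2-1, neither of them called. All 4 wall genes were raised by at least 0.8 with BL in det2-1 at 3 h because the choice of members required it.

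Of 5 genes for lipid enzymes, lipid transfer or lipid binding, AT5G45670, AT4G18970 and AT1G30690 rose with BL in Col-0 at 3 h. Except for AT1G75900, a further GDSL-family gene, all 5 were lower in det2-1 with BL at 30 min. The probe set of AT5G46900 and AT5G46890, which resemble lipid-transfer proteins, had the largest difference of these at -2.50 (adjusted p = 1.24e-05) and a difference of 0.08 with BL in Col-0. AT4G18970 measured 9.34 and 10.48 in det2-1 with BL for 30 min, against 10.72 and 10.83 in Col-0 with BL (-0.87), a call that held in 2 of the 4 tests with 1 array left out. The calls of AT5G45670 and AT1G30690 in det2-1 held in 1 of the 4.

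The 5 regulatory genes were AT2G31730, the RING-finger gene AT5G41400, the FLZ-domain gene AT1G78020, the protein kinase AT3G62220 and the kinase-related AT1G66940. Of these AT2G31730 rose with BL in Col-0, and AT5G41400 (-1.30, adjusted p = 8.76e-05) and AT1G66940 (-0.87, adjusted p = 6.47e-05) were lower in det2-1 with BL at 30 min. Of 9 further enzymes and transporters, 7 were lower in det2-1 with BL at 30 min and 0 were called with BL in Col-0 at 3 h. The 7 included the aspartyl protease AT5G10770 (-2.64, adjusted p = 0.000528), AT4G29700, the DNA glycosylase family gene AT5G44680 (-1.61, adjusted p = 0.00193) and the methyltransferase AT5G40830 (-1.05, adjusted p = 0.00149). They also included AT5G25170 of the PPPDE peptidase family (-0.76), the sugar transporter-like AT4G04750 (-1.13) and the nucleotide-sugar transferase CDI (-0.99). The call of AT4G04750 was lost with any 1 of the 4 arrays left out. Not called were the phosphoglycerate mutase family gene AT5G04120 (-0.81) and AT5G44440 of the berberine bridge enzyme family (-0.89).

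COR47, a dehydrin that accumulates in cold and drought, and AT1G62480 were lower in det2-1 with BL at 30 min (-0.74 and -2.10), the call of COR47 holding in 1 of the 4 tests with 1 array left out, while AT3G05920, which has a heavy-metal-binding domain, was not called (-1.44). AT1G17830, whose role is not known, had the smallest difference of the 65 at -0.36. Of the 36 unnamed members, 7 rose with BL in Col-0 at 3 h and 26 were lower in det2-1 with BL at 30 min. Of all 65 members, 20% and 69.2% were so called.

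A separate comparison asked whether the members were also low in ga1-5, the gibberellin-deficient genotype. With GA3 given to both genotypes and averaged over the 3 times, 41 of 65 members were lower and 5 higher in ga1-5 than in Col-0, with a median of -0.76 against 0.01 for all tested probe sets. Of all tested probe sets 21.5% were called lower and 20.7% higher. The lowest were 258856_at at -4.70 (adjusted p = 4.5e-12) and AT5G20790 at -4.45 (adjusted p = 6.05e-13). AT5G20790 measured 7.08 and 6.03 at 30 min, 6.93 and 7.36 at 1 h and 6.62 and 6.95 at 3 h in ga1-5 with GA3, against 11.47 and 10.78, 11.56 and 10.78, and 11.82 and 11.24 in Col-0 with GA3. Every ga1-5 array thus lay below every Col-0 array. Of the 27 photosynthesis probe sets, 17 were also lower in ga1-5, and the part of this in the members' difference was not tested.

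The 5 members higher in ga1-5 were 258589_at (1.03), AT1G67750 (1.01), COR47 (0.82), AT4G04750 (0.67) and AT3G09540 (0.56). COR47 measured 13.72 and 13.71 in ga1-5 with GA3 for 3 h, against 12.55 and 12.68 in Col-0 with GA3. AT1G67750 measured 11.34 and 11.68, against 10.56 and 9.91. In det2-1 with BL at 30 min both genes were called lower, but each of these calls held in 1 of the 4 tests with 1 array left out. Of the 45 members lower in det2-1 with BL at 30 min, 30 were lower in ga1-5, which is 66.7% of the 45 and 73.2% of the 41. These shares are near those of all 65 members, of which 63.1% were lower in ga1-5 and 69.2% in det2-1. Across the 65 members, the difference in ga1-5 and that in det2-1 at 30 min of BL correlated at 0.35 (Pearson) and 0.38 (Spearman). The 2 differences share no array, although their Col-0 arrays at 30 min are from the same set. On the deposited scale, without rescaling, the split in ga1-5 was 28 higher and 13 lower, while the median of all tested probe sets moved to 1.19.

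**Figure D5:**
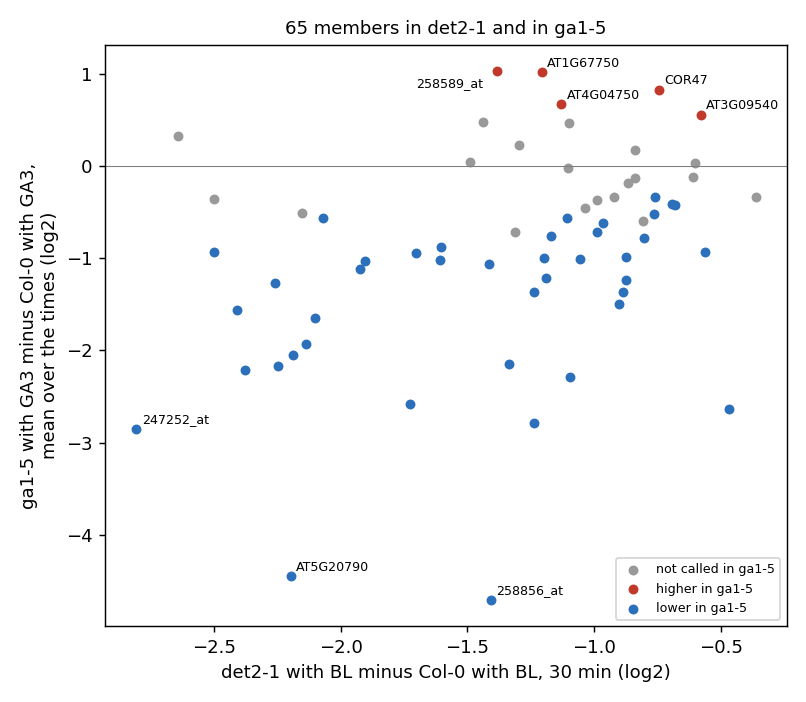
Each of the 65 members placed by its difference (log2) between det2-1 and Col-0 with BL at 30 min on the horizontal axis and between ga1-5 and Col-0 with GA3, averaged over the times, on the vertical axis; red and blue mark members called higher and lower in ga1-5. All points lie left of 0, and 5 red points lie above 0, among them COR47 and AT1G67750.

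GA3 against mock in ga1-5, averaged over the 3 times, gave few calls by limma: 1 member was lower and 0 were higher, the median was 0.06, and at an unadjusted p under 0.05 6 members were lower and 3 higher, against 2.94% and 1.67% of all tested probe sets. Of all tested probe sets 0.18% were called lower and 0.0463% higher. The member was 267614_at, which measured 8.16 and 8.12 with GA3 at 30 min, 6.60 and 6.36 at 1 h and 7.77 and 6.50 at 3 h, against 8.70 and 8.64, 8.40 and 8.37, and 8.17 and 8.35 with mock (-1.18 ± 0.23 SE, adjusted p = 0.00739). The GA3 arrays lay below the mock arrays at each time. The call was lost without ga1-5 GA3 3 h replicate 2.

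The other hormones were compared with GA3 in Col-0 at 3 h. These comparisons and the one for BL share the same 2 GA3 arrays, so their values stand side by side and are not independent of each other. Under ABA, 29 members fell and 6 rose, against 17.3% and 10.5% of all tested probe sets, with a median of -0.59 against -0.17. With the replicate number as a block, 35 fell and 9 rose. The shares of all tested probe sets called with the block are not given, here or for MJ and IAA. Those counts therefore cannot be set against them. 252965_at measured 6.26 and 7.14 with ABA, against 10.72 and 11.46 with GA3 (-4.39 ± 0.29 SE, adjusted p = 3.16e-16). EXPA8 measured 6.27 and 7.40 with ABA, against 10.35 and 10.33 with GA3 (-3.50 ± 0.75 SE, adjusted p = 0.000317). TBL45 measured 8.50 and 8.76, against 11.19 and 11.10 (-2.52 ± 0.26 SE, adjusted p = 1.7e-10). The other 2 members grouped with the cell wall, AT1G67750 (-0.07, adjusted p = 0.917) and AT3G09540 (0.05, adjusted p = 0.885), were not called. 259790_s_at (-2.57), AT1G66940 (-2.48) and AT4G29700 (-2.28) fell as well. COR47 rose, with 14.43 and 15.19 under ABA, against 12.55 and 12.68 under GA3 (2.19 ± 0.24 SE, adjusted p = 7.2e-10). The other 5 that rose were AT5G04120 (2.04), 258299_at (1.90), 263073_at (1.56), 255690_at (0.95) and 247470_at (0.76).

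Under MJ, 19 members fell and 7 rose, against 4.46% and 3.9% of all tested probe sets, with a median of -0.50 against -0.09. With the replicate number as a block, 29 fell and 9 rose. AT5G04120 measured 12.40 and 11.70 with MJ, against 8.98 and 8.31 with GA3 (3.40 ± 0.45 SE, adjusted p = 3.03e-07). AT4G29700 measured 12.74 and 12.96 with MJ, against 10.97 and 10.38 with GA3 (2.17 ± 0.28 SE, adjusted p = 1.18e-07). Both genes lay higher with MJ than on any GA3 array at 3 h. Among those that fell were 258856_at (-2.85), AT5G20790 (-2.61), 252965_at (-2.46), AT1G67750 (-1.69) and AT5G45670 (-1.68). For AT4G29700 the difference was -2.28 under ABA, 2.17 under MJ and -0.22 under BL.

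Under IAA, 7 members rose and 12 fell, against 1.88% and 2.16% of all tested probe sets, with a median of -0.28. With the replicate number as a block, 9 rose and 16 fell. 267614_at measured 9.73 and 9.23 with IAA, against 7.85 and 6.48 with GA3 (2.32 ± 0.40 SE, adjusted p = 0.000107). 252970_at measured 10.76 and 10.78 with IAA, against 8.24 and 9.01 with GA3 (2.15 ± 0.51 SE, adjusted p = 0.00676). 253103_at measured 10.81 and 9.73 with IAA, against 8.33 and 8.44 with GA3 (1.88 ± 0.34 SE, adjusted p = 0.000265). These are also the 3 members with the largest difference under BL in det2-1. The other 4 that rose were 264100_at (1.48), AT1G67750 (1.27), AT5G41400 (1.22) and 259790_s_at (1.18). Of those that fell, 254606_at had the largest difference (-2.74, adjusted p = 6.78e-08), followed by 259388_at (-1.88), the probe set of AT5G46900 and AT5G46890 (-1.85), AT5G44680 (-1.50) and AT1G78020 (-1.31). The balance moved with the arrays used: 5 rose and 3 fell without Col-0 GA3 3 h replicate 1, 4 rose and 6 fell without Col-0 IAA 3 h replicate 1, 8 rose and 7 fell against Col-0 mock in place of GA3, and 5 rose and 4 fell on the deposited scale.

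Under ACC, 7 members fell and 0 rose, against 0.747% and 0.585% of all tested probe sets, with a median of -0.48 against 0.00. AT5G45670 measured 9.83 and 9.88 with ACC, against 11.08 and 11.10 with GA3 (-1.24 ± 0.23 SE, adjusted p = 0.000892). AT5G44680 measured 8.99 and 9.64 with ACC, against 10.92 and 10.87 with GA3 (-1.58 ± 0.36 SE, adjusted p = 0.0109). The other 5 were 254606_at (-1.40), 255690_at (-1.03), TBL45 (-1.02), 258589_at (-0.83) and 263073_at (-0.83). The count was 2 without Col-0 ACC 3 h replicate 1, the array whose trimmed mean differs from its set, 2 without Col-0 GA3 3 h replicate 1 and 3 without GA3 replicate 2. Under zeatin, 3 members rose and 0 fell, against 0.95% and 0.504% of all tested probe sets, with a median of 0.00. They were 259388_at (2.65, adjusted p = 0.000109), AT5G04120 (1.87, adjusted p = 0.0212) and 263073_at (1.40, adjusted p = 3.64e-05).

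Side by side at 3 h, AT5G45670 differed from GA3 by 0.95 under BL, -1.11 under ABA, -1.68 under MJ and -1.24 under ACC, all 4 called, and by -0.28 under IAA and -0.05 under zeatin, neither called. AT2G31730 differed by 1.90 under BL and -1.14 under ABA, both called, and by -0.57 under IAA, 0.57 under zeatin, -0.32 under MJ and -0.35 under ACC, none called. 253103_at differed by 2.68 under BL, 1.88 under IAA, 1.83 under MJ and -1.10 under ABA, all called. 254042_at differed by 2.24 under BL and -1.36 under MJ, both called, and by -0.28 under IAA. Among these members with the largest differences under BL, some were called under other hormones as well, in either direction.

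Other genes of the pathway were looked at through lists. Of 9 tested genes of xyloglucan modification, XTH19 (2.22, adjusted p = 4.29e-06), XTH33 (1.34, adjusted p = 0.00037) and XTH18 (2.46-fold, adjusted p = 0.00375) were higher with BL in Col-0 at 3 h, and 0 were lower. Lower in det2-1 with BL at 30 min were XTH19 (-1.63), XTH21 (-1.56), XTH33 (-0.81) and XTH16 (-0.59). XTH19 is 1 of the 5 probe sets left out of the members by name. Of 15 tested expansins other than the member EXPA8, 0 were called with BL in Col-0, and EXPA4 (-1.47), EXPB3 (-1.37) and EXPA15 (-1.30) were lower in det2-1. The 15 include EXLA1 and EXLA2, which were left out of the members by name. Of 8 tested genes of cellulose and matrix synthesis, CSLC5 (0.87), CSLC04 (0.75) and COB (0.47) rose with BL in Col-0, and CSLC5 (-0.58) and CSLC04 (-0.59) were lower in det2-1. EXO, a brassinosteroid-responsive wall protein also left out by name, rose by 1.63 in Col-0. Of 2 tested genes of arabinogalactan and wall proteins, 1 was higher in det2-1 with BL at 30 min and 0 were lower. Of 9 tested jasmonate and defence genes, 1 was lower in det2-1 and 0 were higher.

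Of 3 tested genes of brassinosteroid signalling, BRH1, a RING-finger gene known to be lowered by brassinolide, moved opposite to the members: it fell by 0.78 with BL in Col-0 (adjusted p = 0.00106) and was higher in det2-1 with BL at 30 min (1.24, adjusted p = 4.47e-08). BIM1 (-0.48 and 0.00) and TOPP7 (0.07 and 0.17) were called in neither. Of 5 tested gibberellin genes, XERICO was higher with BL in Col-0 (1.65, adjusted p = 1.61e-08) and lower in det2-1 (-0.70, adjusted p = 0.00498). Of 13 tested auxin response genes, GH3.3 fell by 1.12 with BL in Col-0 and HAT2 was lower in det2-1 (adjusted p = 0.00241). None of the genes listed for brassinosteroid synthesis could be tested under the names given here.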

How the data were processed

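The authors deposited linear signal intensities, computed by MAS5 according to the submitters' processing notes. Each array was divided by its 2% trimmed mean over the probe sets measured on all arrays and multiplied by 1147, since the deposited trimmed means were 871 to 1158 in Col-0 and 1810 to 2963 in the mutants. Levels are log2(signal + 55), with 55 near 10% of the median deposited signal. On Col-0 IAA 30 min replicate 2, 1973 probe sets held impossible values and were masked, 5 members among them. No comparison here uses that array in its difference, though its other values enter the shared spread. Probe sets above the 40th percentile on at least 2 arrays (17262) were tested with limma 3.58.1 in R 4.3.3, with 1 mean per group over 72 arrays and an intensity trend, and Benjamini-Hochberg adjustment. The spread so estimated includes the 14 arrays that chose the members. The procedure was tested on simulated data. The number of arrays, 2 per group, limits the precision. Gene names came from the platform annotation, updated through Entrez IDs: of 22810 probe sets 13513 name 1 gene, 503 several and 8794 none, and symbols of 13436 matched. The members, the gene lists and the comparisons were chosen with earlier results of these data known. Every member that names a gene is named. Values per array are given for the 6 members with the largest BL difference in det2-1, the 6 with the largest deficit, and the 6 with the smallest adjusted p in BL against GA3 at 3 h and in det2-1 against Col-0 at 30 min, and for further members chosen after their values were seen. Of the gene lists, those called were named only in part. Same-numbered Col-0 arrays of IAA, zeatin, ABA and MJ and of GA3 deviated together (correlations 0.12 to 0.38 at all times). For BL, ACC and the genotype comparisons at least 1 time was under 0.1. The main tests of all comparisons left the replicate number out. Counts with it as a block are given beside those of ABA, MJ and IAA, and under zeatin 4 members rose and 0 fell with it.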

Additional observations from a re-analysis of the deposited data

Results flagged for a closer look

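The change from 30 min to 1 h of BL differed between det2-1 and Col-0 by 2.08 (log2) for 252965_at and by 2.06 for 259790_s_at, tested as a difference of differences with limma. Both calls were lost without Col-0 BL 30 min replicate 1 or 2, Col-0 BL 1 h replicate 1 or det2-1 BL 30 min replicate 1, where the count was 0. 259790_s_at has an ID that marks probes shared by related transcripts. The change over time cannot be told apart from a difference between the lettered sets of the 2 times.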

How the results depend on the processing

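Without rescaling, on the deposited scale, members called were 7 (BL at 3 h), 17 (det2-1 at 30 min, 3 higher and 14 lower), 13 (det2-1 at 1 h, 1 and 12), 1 (change from 30 min to 1 h), 41 (ga1-5, 28 and 13), 9 (IAA, 5 and 4), 23 (ABA), 15 (MJ) and 2 (ACC). There the median of all tested probe sets was 1.12 for det2-1 at 30 min, 0.72 at 1 h and 1.19 for ga1-5. The median of the 65 members for det2-1 at 30 min was -0.10. Of the 45 members called lower in that comparison, 29 were followed individually under other settings. On the deposited scale 9 of these 29 came out above 0: AT5G45670 0.30, AT1G30690 0.56, AT5G25170 0.37, AT5G40830 0.11, AT4G18970 0.30, AT1G66940 0.31, AT3G09540 0.52, COR47 0.46 and CDI 0.20. With a pseudocount of 50% of the median signal the counts were 2 (BL at 30 min) and 3 (BL at 1 h), and with 2% 1 for the change. Quantile normalization gave 2 (BL at 1 h). With the arrays of the sets compared alone, they were 0 (BL at 30 min), 1 (the change), 2 (GA3 in ga1-5) and 3 (ACC). Without members of shared probes the change had 1. A replicate block gave 4, 7 and 22 (BL at 30 min, 1 h and 3 h), 6 (GA3 in ga1-5) and 17 (ACC), gave 29 lower under MJ, against 19 (38 called in all, against 26), and moved no other count, in total or in the leading direction, by over 1.5 times; replicates of the comparisons of BL, ACC and GA3 in ga1-5 share only a number, with same-numbered correlations of 0.31, 0.32 and 0.10 for BL, 0.31, 0.31 and 0.05 for ACC and 0.25, 0.10 and 0.05 for GA3 in ga1-5. Against Col-0 mock in place of GA3 the counts were 2 (BL at 1 h), 15 (IAA, 8 higher and 7 lower) and 3 (ACC), and against the mean of zeatin, GA3 and ACC (without the hormone compared) 5 (BL at 1 h), 27 (BL at 3 h), 6 (zeatin) and 12 (ACC). Without Col-0 ACC 3 h replicate 1, chosen after seeing the data, the same mean gave 25 (BL at 3 h), 4 (zeatin) and 7 (ACC). Leaving out 1 array gave 0 to 1 (BL at 30 min), 1 to 4 (BL at 1 h), 5 to 7 (BL at 3 h), 26 to 39 (det2-1 at 30 min), 26 to 37 (det2-1 at 1 h), 0 to 2 (the change), 45 to 48 (ga1-5), 0 to 1 (GA3 in ga1-5), 8 to 13 (IAA), 2 to 4 (zeatin), 24 to 32 (ABA), 18 to 22 (MJ) and 2 to 5 (ACC). Arrays scaled by their own trimmed mean with members chosen again, a setting added after seeing the data, gave counts within 1.5 times throughout. The causes were not tested. The shares of all tested probe sets called under these settings are not given, so whether a count moved for the members alone cannot be told. Of the values of named members under other settings, 1116 kept their direction and side of the threshold, 93 lost a call, 34 gained one, 35 moved and 9 changed sign. Dim probe sets and 2 arrays a group limit what could be called.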
